A study of Homo sapiens with 10 samples.

Results

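The genes described here are ZEB1, ZEB2, SNAI1, SNAI2, TWIST1 and TWIST2, which encode transcription factors of the epithelial to mesenchymal transition, and ESRP1, ESRP2 and EPCAM, epithelial genes that they oppose. They were chosen by symbol, with earlier results of these data known. All 9 were found among the 58735 lines of the count table, on 1 line each. RNA-seq had been run on 10 libraries of human brain endothelial cells labelled HCMECs and described only as a cell line. Of these, 5 came from cells given an siRNA against USP9X (siUSP9X) and 5 from cells given a control siRNA (siCtrl). Both groups were transfected for 48 h and then stimulated with the ligand Wnt3a for 12 h, so the controls had received Wnt3a too and no unstimulated cells were compared. USP9X is an X-linked deubiquitinase, an enzyme that removes ubiquitin from other proteins. The comparison asked how the RNA of these genes differed when USP9X was depleted in Wnt3a-stimulated cells.

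ZEB and SNAI proteins are zinc finger repressors that bind E-box sequences in the promoters of epithelial genes, and TWIST proteins are basic helix-loop-helix factors that act beside them. ZEB1 and ZEB2 RNAs are held down by the microRNAs of the miR-200 family, and ZEB proteins in turn repress the genes of those microRNAs, which makes the pair a textbook double-negative loop. ESRP1 and ESRP2 are RNA-binding proteins that set the epithelial form of many spliced transcripts, and EPCAM is an adhesion protein of the epithelial surface. In endothelial cells, factors of this group are known for their part in the endothelial to mesenchymal transition.

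The sequences of the miR-200 family and of miR-205 are shown because their seeds, in capitals (bases 2 to 8), match different sites in the 3′ UTR of ZEB1, ZEB2 or both. They are mature sequences from RefSeq (GRCh38.p14), and the first 3 share one seed, the next 2 another, while miR-205 has its own.
hsa-miR-200b-3p: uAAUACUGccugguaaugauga
hsa-miR-200c-3p: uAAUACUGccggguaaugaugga
hsa-miR-429: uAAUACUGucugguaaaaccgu
hsa-miR-141-3p: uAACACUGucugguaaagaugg
hsa-miR-200a-3p: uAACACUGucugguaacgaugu
hsa-miR-205-5p: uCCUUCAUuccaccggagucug

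The 3′ UTR of the principal ZEB1 transcript (1938 bases, GENCODE release 29, GRCh38) held 5 matches to the first seed, and that of ZEB2 (5370 bases) also held 5. Windows of 24 bases around them are shown with the match, CAGTATT, in capitals.
ZEB1, chr10:31527618-31527641, plus strand: attgttttatcttatCAGTATTat
ZEB1, chr10:31527712-31527735, plus strand: atgctaaatccgcttCAGTATTtt
ZEB1, chr10:31528141-31528164, plus strand: gtaagtgccatttctCAGTATTtt
ZEB1, chr10:31528492-31528515, plus strand: ctgatttttacctatCAGTATTat
ZEB1, chr10:31528562-31528585, plus strand: tgtcttcaaacctggCAGTATTaa
ZEB2, chr2:144389051-144389074, minus strand: cgcactaccatacatCAGTATTtt
ZEB2, chr2:144388988-144389011, minus strand: cgcactacaatgcatCAGTATTat
ZEB2, chr2:144388630-144388653, minus strand: ttgaagcacccatgtCAGTATTag
ZEB2, chr2:144388545-144388568, minus strand: gttcattaattttgtCAGTATTac
ZEB2, chr2:144388414-144388437, minus strand: tcatactgtagtgtaCAGTATTat

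At least 1 such match was present in 18% of the 11832 3′ UTRs of tested genes, which differ in length, and only 5 of them held 5 or more. The second seed (match CAGTGTT) was matched 3 times in ZEB1 and 4 times in ZEB2, against a share of 19.7% of UTRs with any match. At least 3 such matches were present in 144 of the 11832 UTRs, and at least 4 in 44. The miR-205 seed (match ATGAAGG) was matched once in ZEB1 and nowhere in ZEB2. ESRP1 held 1 match to each of the first and second seeds, and SNAI1 and EPCAM held none of the 3. A seed match is a description of the letters and not a measured site. The precursor genes themselves were hardly seen in these poly(A) libraries: MIR200C, MIR141, MIR205 and the host transcripts MIR200CHG and MIR205HG had 0 counts in every library. MIR200B had 2 pooled counts in siUSP9X and 11 in siCtrl, MIR200A had 5 in siUSP9X and 1 in siCtrl, and MIR429 had 10 in siUSP9X and 25 in siCtrl. Such libraries do not measure mature microRNAs.

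The promoter windows are shown because the factors of this group bind the E-box core CACCTG, read as CAGGTG on the other strand. Of the 9 genes, 3 had promoter windows in the RefSeq table (GRCh38.p14; 250 bases before and 50 after a transcription start). The first below is the ZEB1 window with the most E-boxes and the second is the ZEB2 window, with E-boxes in capitals.
ZEB1, chr10:31318966-31319265, plus strand: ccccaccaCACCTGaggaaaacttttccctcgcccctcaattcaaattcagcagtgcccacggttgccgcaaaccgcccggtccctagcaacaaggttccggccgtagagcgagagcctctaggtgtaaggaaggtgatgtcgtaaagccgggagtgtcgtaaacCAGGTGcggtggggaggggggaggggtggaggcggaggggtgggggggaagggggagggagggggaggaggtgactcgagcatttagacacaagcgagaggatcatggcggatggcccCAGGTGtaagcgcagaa
ZEB2, chr2:144520070-144520369, minus strand: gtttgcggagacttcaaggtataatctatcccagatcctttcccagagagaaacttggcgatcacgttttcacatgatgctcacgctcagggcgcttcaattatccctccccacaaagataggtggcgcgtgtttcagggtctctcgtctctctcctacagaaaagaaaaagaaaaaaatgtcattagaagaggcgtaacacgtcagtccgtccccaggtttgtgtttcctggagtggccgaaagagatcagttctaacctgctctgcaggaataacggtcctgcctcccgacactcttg

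The ZEB1 window held 3 matches to this E-box, the ZEB2 window 0 and the TWIST2 window 0. Of 7 ZEB1 windows, 2 held at least 1 match. Across 35116 windows of the same length in the table, 20.6% held at least 1 match and 0.635% held 3 or more. Of 29 windows matched to 22 of 37 genes of the epithelial list described further on, 20 held the E-box. That list was made in part of genes known to be repressed by ZEB or SNAI proteins, which bind this E-box. Its share is therefore a description and no independent result. A match is a description of letters and says nothing of occupancy in these cells.

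Library totals ran from 15958362 to 26467787 counts. USP9X averaged 35.2 ± 19.8 counts per 1e+06 (CPM) in siUSP9X and 341 ± 48.6 CPM in siCtrl (SD, n = 5 each), with a log2 fold change of -3.28 ± 0.32 (SE; edgeR quasi-likelihood test, adjusted p = 0.000403). One library, siUSP9X replicate 2, stood apart. In it the ribosomal protein genes made up 1.96% of counts, where the remaining libraries had 4.10% to 5.84%, and the mitochondrial MT-RNR2 made up 1.40%, where they had 0.380% to 0.573%. It kept 68.8 CPM of USP9X, where the rest of its group kept 20.7 to 36.5 CPM. Fold changes of the tested genes among the 9 and counts of called genes are therefore also given without it. At an adjusted p under 0.05, edgeR called 1019 of 13934 tested genes, which is 7.31%, with 4.09% higher and 3.22% lower in siUSP9X. Without replicate 2 it called 23.4% of 14086 tested genes, with 11.9% higher and 11.5% lower. Since the labels leave unstated whether a library stands for its own culture, the p-values speak only for how far these libraries vary, and that variation may be technical.

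The labelled cell type was checked against marker genes. Of 20 endothelial markers 7 passed the filter on low counts, and several defining ones were at or near 0. PECAM1 had 8 pooled counts in siUSP9X and 8 in siCtrl, VWF had 4 in siUSP9X and 5 in siCtrl, KDR had 2 in siUSP9X and 4 in siCtrl, and ERG and EMCN had none. Other markers of the list were well counted. ESAM averaged 143 CPM in siUSP9X and 161 CPM in siCtrl, and PROCR 92.5 CPM in siUSP9X and 90.3 CPM in siCtrl. ENG averaged 59.1 CPM in siUSP9X and 84.1 CPM in siCtrl, and EGFL7 14.8 CPM in siUSP9X and 27.5 CPM in siCtrl. The summed level of the list was 159 to 367 CPM in siUSP9X and 323 to 398 CPM in siCtrl. By edgeR 0 endothelial markers were called, against 3 lower at an unadjusted p under 0.05, 3 lower by DESeq2 and 1 lower by limma-voom. Without siUSP9X replicate 2 edgeR called 4 of them lower (NOS3, ENG, SOX18 and EGFL7). Of 14 epithelial markers 6 were tested, and their summed level was 2053 to 2798 CPM in siUSP9X and 3345 to 4209.9 CPM in siCtrl, nearly all of it from the keratins KRT8 and KRT18. Those 2 keratin genes were called lower by edgeR, and 4 markers were lower at an unadjusted p under 0.05, 4 by DESeq2, 2 by limma-voom and 4 by edgeR without siUSP9X replicate 2. In that last fit the further 2 were ESRP1 and EPCAM, which are among the 9 genes themselves. None was higher by edgeR, at an unadjusted p under 0.05 (0), by DESeq2 (0) or by limma-voom (0). KRT5, KRT14 and GRHL2 were at 0. Fibroblast and mural markers summed to 6.57 to 9.70 CPM in siUSP9X and 4.96 to 6.63 CPM in siCtrl, with 0 of 5 tested called by edgeR with or without siUSP9X replicate 2, 1 higher at an unadjusted p under 0.05, 0 by DESeq2 and 0 by limma-voom. The part of cell composition in the results below was not tested, and in bulk RNA fewer cells of a type cannot be told apart from less RNA per cell.

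ZEB1 and ZEB2 rose in siUSP9X, SNAI1 did not pass the test, and SNAI2, TWIST1 and TWIST2 were at or near 0 in both groups. ESRP1 and EPCAM had lower values in siUSP9X but passed the test only in some of the fits. Of the 9 genes, 5 passed the filter on low counts and 2 of these were called higher, beside 7.31% called among all tested genes. None was called lower by edgeR, against 2 lower at an unadjusted p under 0.05 (ESRP1 and EPCAM), 2 lower by DESeq2 and 0 lower by limma-voom. Without siUSP9X replicate 2, edgeR called 2 higher and 2 lower, beside 23.4% called among all genes.

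ZEB1 (ENSG00000148516.21, chr10:31318495-31529814, plus strand, GRCh38) encodes the zinc finger repressor best known for silencing E-cadherin. Its level in the 5 siUSP9X libraries was 36.3, 61.5, 31.7, 28.3 and 32.8 CPM, against 21.0, 16.0, 23.2, 17.1 and 18.5 CPM in the 5 siCtrl libraries. Every siUSP9X library lay above every siCtrl library, and replicate 2 was well above the rest of its group. Means were 38.1 ± 13.4 CPM in siUSP9X and 19.1 ± 2.94 CPM in siCtrl (SD, n = 5 each). The log2 fold change was 0.99 ± 0.21 (SE), a 1.99-fold higher level, with an edgeR adjusted p of 0.0181. Without siUSP9X replicate 2 the other 4 averaged 32.3 ± 3.27 CPM, and the log2 fold change was 0.76 (adjusted p = 0.000119, edgeR). The call was lost without siCtrl replicate 2, 4 or 5, where the edgeR adjusted p was 0.0553, 0.0580 and 0.0526 in that order and the fold change stayed within 0.93 to 0.98 on the log2 scale.

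ZEB2 (ENSG00000169554.19, chr2:144364364-144524583, minus strand) encodes the second member of the family, a protein that binds the same E-box as ZEB1, and its 3′ UTR too holds miR-200 seed matches. Its level was 3.94, 12.8, 4.92, 4.25 and 4.48 CPM in siUSP9X, against 3.14, 1.51, 2.08, 1.70 and 1.86 CPM in siCtrl. The groups did not overlap, although siUSP9X replicate 1 and siCtrl replicate 1 lay close together, and siUSP9X replicate 2 was again the highest. Means were 6.08 ± 3.77 CPM in siUSP9X and 2.06 ± 0.638 CPM in siCtrl (SD, n = 5 each). The log2 fold change was 1.56 ± 0.36 (SE), a 2.96-fold higher level, with an edgeR adjusted p of 0.0258. Without siUSP9X replicate 2 the remaining 4 siUSP9X libraries averaged 4.40 ± 0.414 CPM (SD), with a log2 fold change of 1.10 (edgeR adjusted p = 0.000920). Leaving out siCtrl replicate 2, 3, 4 or 5 ended the call, with edgeR adjusted p-values of 0.0767, 0.0700, 0.0768 and 0.0721 in that order. Groups that did not overlap, as those of ZEB1 and ZEB2, were found for 14.6% of tested genes, 7.79% with siUSP9X above and 6.85% with siUSP9X below.

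**Figure D1:**
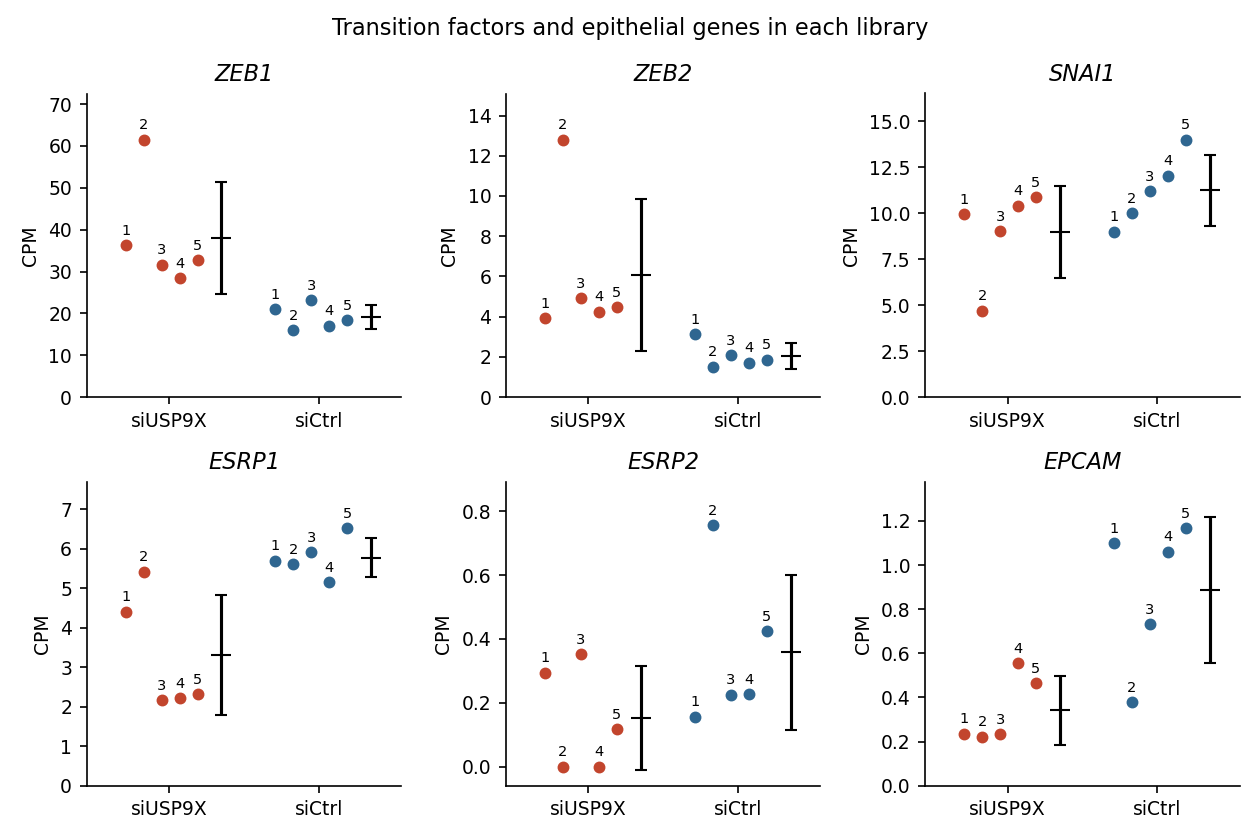
CPM of 6 genes in each library, with siUSP9X left of siCtrl; points are libraries with their replicate number, the cross bar is the mean and the error bar the SD (n = 5). Each gene has its own axis, and siUSP9X replicate 2 is the top point for ZEB1 (61.5 CPM) and ZEB2 (12.8 CPM) and the bottom one for SNAI1 (4.71 CPM).

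SNAI1 (ENSG00000124216.3, chr20:49982999-49988886, plus strand) encodes Snail, a short-lived repressor that is often the earliest factor to appear in the transition. Its level was 9.94, 4.71, 9.03, 10.4 and 10.9 CPM in siUSP9X, against 8.99, 9.99, 11.2, 12.0 and 14 CPM in siCtrl. The groups overlapped, and siUSP9X replicate 2 was the lowest of all 10 libraries. The log2 fold change was -0.32 ± 0.21 (SE; edgeR adjusted p = 0.324), and without replicate 2 it was -0.16 (adjusted p = 0.402, edgeR). Its processed pseudogene SNAI1P1 had 0 counts.

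SNAI2, which encodes Slug, had 1 count in all, in siUSP9X replicate 3, and none in siCtrl. TWIST1 and TWIST2 had 0 counts in every library, which allows pooled levels of up to 0.0351 CPM in siUSP9X and 0.0298 CPM in siCtrl (3 counts in the pooled libraries). No fold change is given for these 3 genes. Such limits, like the Poisson intervals below, cover counting error only.

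ESRP1 (ENSG00000104413.16, chr8:94641074-94707466, plus strand) encodes the more abundant of the epithelial splicing regulators here. Its level was 4.41, 5.43, 2.17, 2.22 and 2.32 CPM in siUSP9X, against 5.70, 5.62, 5.91, 5.15 and 6.52 CPM in siCtrl. Of the siUSP9X libraries, 4 lay below every siCtrl library and replicate 2 lay within the siCtrl range. The log2 fold change was -0.80 ± 0.26 (SE; edgeR adjusted p = 0.0837). Without siUSP9X replicate 2 ESRP1 passed the test, with a log2 fold change of -1.05 (edgeR adjusted p = 0.00107) and means of 2.78 ± 1.09 CPM in siUSP9X (n = 4) and 5.78 ± 0.499 CPM in siCtrl (SD, n = 5). DESeq2 called it lower with all libraries (adjusted p = 0.0270).

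Both siUSP9X libraries with the most remaining USP9X also had the most ESRP1. Replicate 2 had 68.8 CPM of USP9X with 5.43 CPM of ESRP1, and replicate 1 had 36.5 CPM with 4.41 CPM. In the other siUSP9X replicates (3, 4 and 5) USP9X was 20.7 to 27.6 CPM and ESRP1 2.17 to 2.32 CPM. The same 2 libraries also had the most ZEB1, 61.5 CPM in replicate 2 and 36.3 CPM in replicate 1, where replicates 3, 4 and 5 had 28.3 to 32.8 CPM. Replicate 2, which stood apart, had USP9X higher than the mean of the other siUSP9X libraries by 1.38 on the log2 scale, and its shift with gene length, given below, covers genes as long as USP9X. With so few libraries this is a description, the part of that shift in it was not tested, and no correlation was computed.

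**Figure D2:**
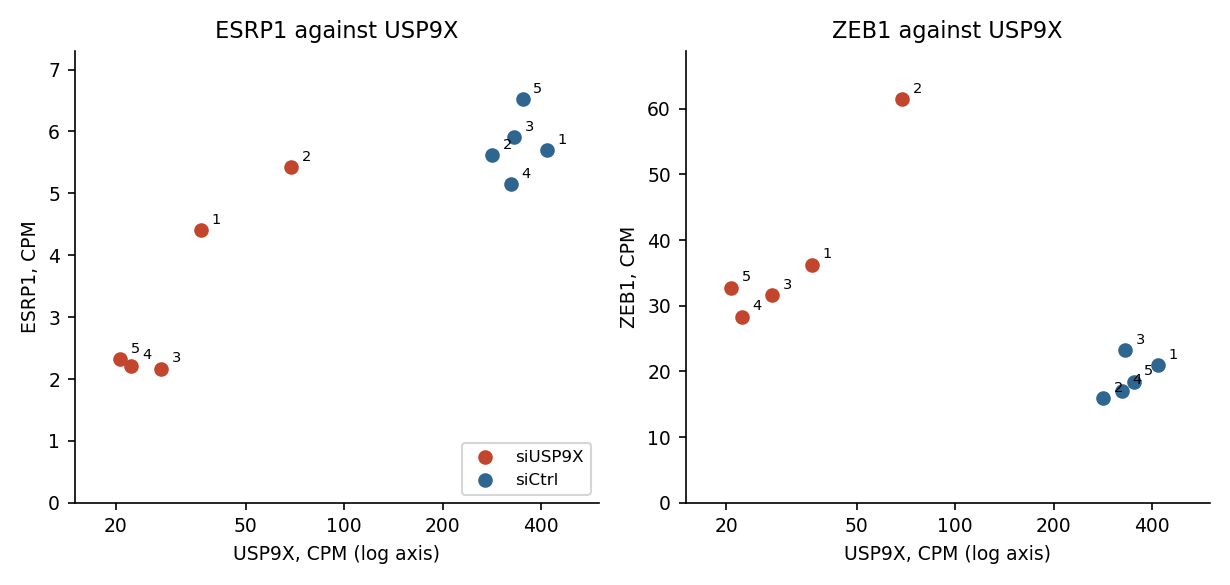
ESRP1 (left) and ZEB1 (right) in CPM against USP9X in CPM on a log axis, 1 point per library with its replicate number, siUSP9X in red and siCtrl in blue. For ESRP1, siUSP9X replicates 1 and 2 sit at 4.41 and 5.43 CPM, above the 2.17 to 2.32 CPM of the other siUSP9X libraries; for ZEB1, siUSP9X replicate 2 is highest at 61.5 CPM.

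ESRP2, which encodes the second of these splicing regulators (chr16:68229111-68238102, minus strand), had 5, 0, 6, 0 and 2 counts in siUSP9X, against 3, 14, 4, 6 and 8 counts in siCtrl. The groups overlapped at this depth. Pooled levels were 0.152 CPM in siUSP9X (13 counts, 95% exact Poisson interval 0.0809 to 0.260) and 0.348 CPM in siCtrl (35 counts, interval 0.242 to 0.484). ESRP2 was under the count filter and not tested. In a fit with no filter its log2 fold change was -1.21 (edgeR adjusted p = 0.398).

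EPCAM (ENSG00000119888.10, chr2:47345158-47387601, plus strand), the epithelial adhesion gene, had 4, 4, 4, 9 and 8 counts in siUSP9X, against 21, 7, 13, 28 and 22 counts in siCtrl. All siUSP9X counts were in single digits, and siCtrl replicate 2 lay among them. Pooled levels were 0.339 CPM in siUSP9X (95% exact Poisson interval 0.227 to 0.487) and 0.904 CPM in siCtrl (interval 0.728 to 1.11). The log2 fold change was -1.37 ± 0.39 (SE; edgeR adjusted p = 0.0561). EPCAM passed the threshold without siUSP9X replicate 2 (-1.26, edgeR adjusted p = 0.0341), without siCtrl replicate 2 (-1.56, adjusted p = 0.0418) and by DESeq2 (-1.40, adjusted p = 0.0306). Without siCtrl replicate 1, 4 or 5 it was under the count filter and not tested.

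**Figure D3:**
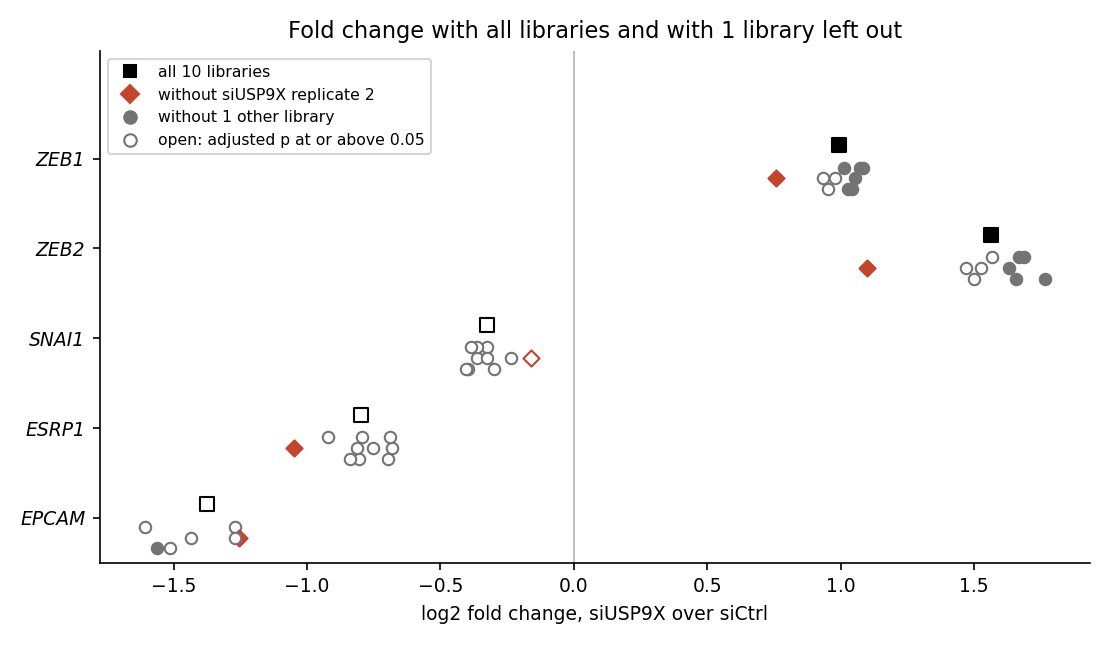
Log2 fold change of the 5 tested genes, siUSP9X over siCtrl, with all 10 libraries (squares), without siUSP9X replicate 2 (diamonds) and without 1 other library (circles); open symbols have an edgeR adjusted p at or above 0.05. ZEB1 and ZEB2 stay above 0 (0.76 to 1.08 and 1.10 to 1.76 without 1 library) and ESRP1 and EPCAM below 0 in every fit shown, while SNAI1 is open throughout.

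In siUSP9X there were 8.23 to 14.6 ZEB1 counts for each ESRP1 count (median 12.8), against 2.83 to 3.92 in siCtrl (median 3.32). These ranges did not overlap, but those of ZEB1 alone did not either, and how often other gene pairs separate was not counted. The ratio does not depend on how libraries are scaled, though this does not remove the trend with gene length given below. For each SNAI1 count there were 2.72 to 13.1 ZEB1 counts in siUSP9X and 1.32 to 2.33 in siCtrl, again without overlap. The 13.1 was siUSP9X replicate 2 alone, in which long genes such as ZEB1 were high and short ones such as SNAI1 low, and the other 4 siUSP9X libraries ran from 2.72 to 3.65. For each ZEB2 count there were 4.81 to 9.21 ZEB1 counts in siUSP9X and 6.68 to 11.1 in siCtrl, with overlap.

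Levels of different genes were compared as CPM per kilobase of merged exons. In siUSP9X the order was SNAI1 (5.33 ± 1.48), ZEB1 (4.41 ± 1.54), ESRP1 (0.679 ± 0.310), ZEB2 (0.242 ± 0.150) and EPCAM (0.136 ± 0.0621 CPM per kilobase, SD, n = 5). In siCtrl it was SNAI1 (6.67 ± 1.14), ZEB1 (2.21 ± 0.340), ESRP1 (1.19 ± 0.102), EPCAM (0.352 ± 0.131) and ZEB2 (0.0822 ± 0.0255 CPM per kilobase). Neighbours in the siUSP9X order had overlapping ranges between SNAI1 and ZEB1, between ESRP1 and ZEB2 and between ZEB2 and EPCAM, while in siCtrl no neighbours overlapped. With the length of the principal transcript instead, ZEB1 was at 7.03 CPM per kilobase in siUSP9X, above SNAI1 at 5.33, and at 3.53 in siCtrl, below SNAI1 at 6.67.

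Gene length also bears on siUSP9X replicate 2. Its level relative to the mean of the other siUSP9X libraries had a median log2 difference of -0.58 in the 3469 tested genes with the shortest merged exons and 0.57 in the 3467 with the longest. Among the 3466 tested genes with 4.784 to 7.247 kb of merged exons, ESRP1 among them, the median difference was 0.14. The difference was 0.92 for ZEB1 (8.65 kb of merged exons), 1.44 for ZEB2 (25.1 kb), 0.90 for ESRP1 (4.88 kb), -0.25 for EPCAM (2.52 kb) and -1.02 for SNAI1 (1.69 kb). ZEB1 and ZEB2 thus have long exons, and SNAI1 and EPCAM short ones. With offsets for each library's trend with length, chosen after the data had been seen, the log2 fold change was 0.82 for ZEB1 (edgeR adjusted p = 0.00440) and 1.08 for ZEB2 (adjusted p = 0.00609, edgeR). In that fit 2 of the chosen genes were called higher and 0 lower, so neither ESRP1 nor EPCAM passed.

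**Figure D4:**
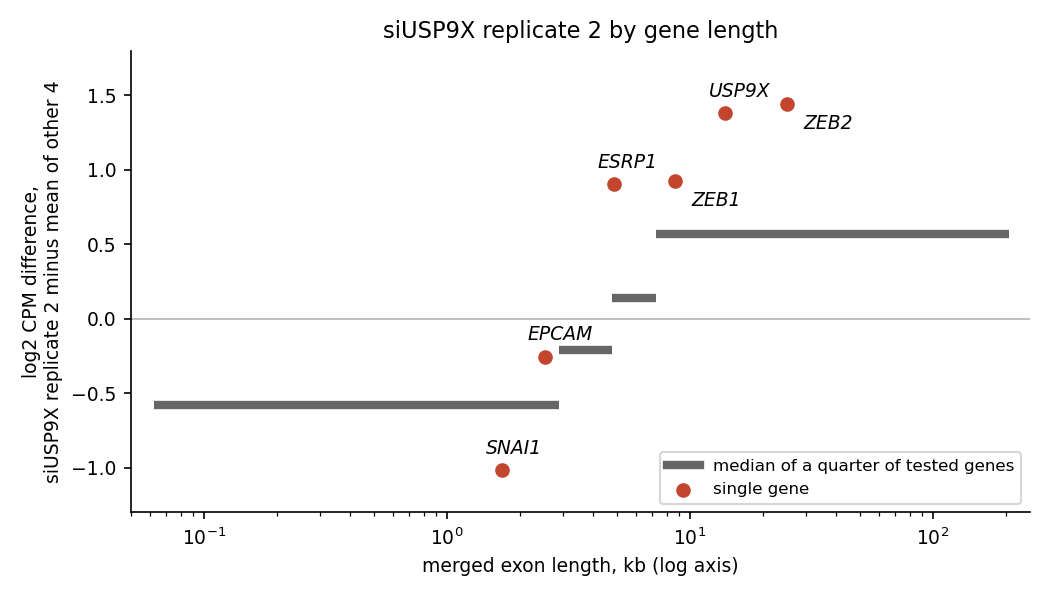
Log2 CPM difference of siUSP9X replicate 2 minus the mean of the other 4 siUSP9X libraries, against merged exon length in kilobases on a log axis. Grey bars are medians of 4 equal-sized groups of the tested genes by length and climb from -0.58 to 0.57; points are single genes, with ZEB2 (1.44) and ZEB1 (0.92) high and SNAI1 (-1.02) low.

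ZEB1-AS1, the antisense neighbour whose gene span shares 1953 bases with that of ZEB1, averaged 4.55 ± 1.11 CPM in siUSP9X and 2.79 ± 0.750 CPM in siCtrl (SD, n = 5 each). The groups overlapped and its log2 fold change was 0.70 ± 0.23 (SE; edgeR adjusted p = 0.0831), or 0.58 without siUSP9X replicate 2 (edgeR adjusted p = 0.0554). The library kit keeps strand, but no source used here says whether the counting used it, so ZEB1 and ZEB1-AS1 reads in the shared stretch are uncertain. ZEB2-AS1 had 0 counts. SNAI3-AS1 was at 4.74 ± 1.33 CPM in siUSP9X and 7.20 ± 2.44 CPM in siCtrl (edgeR adjusted p = 0.154).

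The genes whose profile over the 10 libraries was nearest to that of ZEB1, by the root mean square of the log2 differences between centred profiles, were MCTP1 (0.0966), MAML2 (0.102), MECOM (0.105) and ARHGAP12 (0.111), where the median over 10560 genes was 0.581. Those nearest to ZEB2 were GXYLT1 (0.142), HIPK3 (0.142), SKIL (0.150) and KDM7A (0.158), with a median of 0.796 over 10561 genes. ZEB1 and ZEB2 themselves differed by 0.291. Of these 8 neighbours, 7 had siUSP9X replicate 2 far above the rest of its group by the gap rule given further on, which MAML2 did not meet. This follows from how they were picked, since that library also stood far above its group for ZEB1 and ZEB2.

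Genes of the surrounding pathway were counted in lists, each beside the 7.31% of all tested genes that edgeR called and a median log2 fold change over all tested genes of 0.03. List counts without siUSP9X replicate 2 come from the fit that called 23.4% of all tested genes, 11.9% higher and 11.5% lower, and are to be read beside those shares. The lists were written with earlier results of these data known, so their counts and medians are descriptions and no independent support. Among 21 tested inputs known to induce ZEB or SNAI genes, 3 rose. TGFB2, a TGF-beta ligand and inducer of the transition, averaged 56.7 ± 20.2 CPM in siUSP9X and 14.8 ± 3.40 CPM in siCtrl (log2 fold change 1.94 ± 0.24, edgeR adjusted p = 0.00110), and was called in 10 of 10 fits that left out 1 library. STAT3 (0.45) and HMGA2 (0.45) rose too but were called in only 4 and 3 of those fits. The receptor TGFBR2 had a log2 fold change of -0.40 (edgeR adjusted p = 0.0573). None of the list fell by edgeR, against 3 at an unadjusted p under 0.05, 2 by DESeq2 and 0 by limma-voom. The list's median log2 fold change was 0.16, and without siUSP9X replicate 2 there were 6 higher and 4 lower.

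Of 17 tested factors that drive or oppose the transition beside the 9 genes, 1 rose. This was TCF4, which encodes the E protein E2-2, a partner of helix-loop-helix factors, at 14.8 ± 7.22 CPM in siUSP9X and 6.72 ± 0.994 CPM in siCtrl (log2 fold change 1.14 ± 0.26, edgeR adjusted p = 0.0274). It lost the call without siCtrl replicate 2, 3, 4 or 5. KLF4 (0.68, adjusted p = 0.0554), ID2 (0.67, adjusted p = 0.149) and GRHL1 (-0.40, adjusted p = 0.138, all by edgeR) did not pass. By edgeR 0 fell, against 3 at an unadjusted p under 0.05, 0 by DESeq2 and 0 by limma-voom. The epithelial gatekeeper OVOL2, named after its values were seen, had 5 pooled counts in siUSP9X and 32 in siCtrl and was not tested. The median was 0.07, with 2 higher and 2 lower without siUSP9X replicate 2.

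Among 28 tested co-repressors and chromatin partners, AJUBA rose and CTBP2 fell. AJUBA, a LIM protein that binds SNAI repressors, was at 159 ± 9.88 CPM in siUSP9X and 112 ± 3.80 CPM in siCtrl (log2 fold change 0.50 ± 0.08, edgeR adjusted p = 0.00641; called in 10 of 10 fits without 1 library). CTBP2, a co-repressor recruited by ZEB1, was at 48.8 ± 3.35 CPM in siUSP9X and 64.9 ± 3.16 CPM in siCtrl (-0.41 ± 0.09, edgeR adjusted p = 0.0219; called in 6 of 10). DNMT1 (-0.32) and HDAC2 (0.47) did not pass. The list's median was -0.02, and 3 were higher and 3 lower without siUSP9X replicate 2.

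Of 30 tested kinases, ligases and deubiquitinases known to act on these factors' proteins, 3 rose. FBXW7 and FBXL5, F-box subunits of ubiquitin ligases, had log2 fold changes of 0.92 ± 0.20 (edgeR adjusted p = 0.0216) and 0.61 ± 0.14 (edgeR adjusted p = 0.0277), and LATS2, a Hippo kinase, had 0.49 ± 0.10 (edgeR adjusted p = 0.0148). FBXW11 (0.52, edgeR adjusted p = 0.0642) did not pass. LATS2 was called in 9 of 10 fits without 1 library, FBXW7 in 6 and FBXL5 in 5. None fell by edgeR, while 1 did at an unadjusted p under 0.05, 0 by DESeq2 and 0 by limma-voom. The list's median was 0.13, and without siUSP9X replicate 2 there were 8 higher and 2 lower.

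Of 23 tested epithelial genes that ZEB or SNAI proteins repress or that stand with EPCAM, 3 fell and 1 rose, beside 3.22% lower and 4.09% higher among all genes. The keratin gene KRT18 was at 946 ± 101 CPM in siUSP9X and 1580.2 ± 113 CPM in siCtrl (log2 fold change -0.74 ± 0.10, edgeR adjusted p = 0.00216). PKP3, a desmosomal plakophilin, was at 31.1 ± 4.27 CPM in siUSP9X and 60.3 ± 8.87 CPM in siCtrl (-0.96 ± 0.14, edgeR adjusted p = 0.00270). Both were called in 10 of 10 fits without 1 library, whereas KRT8 (-0.45 ± 0.12, edgeR adjusted p = 0.0400) was called in 3. The receptor gene ERBB3 rose (0.51 ± 0.11, edgeR adjusted p = 0.0204; called in 6 of 10). The median was -0.12, and without siUSP9X replicate 2 there were 10 lower and 2 higher. CDH1, which encodes E-cadherin and is named after its values were seen, had 13 pooled counts in siUSP9X and 23 in siCtrl and was not tested.

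Of 15 tested EPCAM partners and proteases 0 were called by edgeR, against 3 higher and 2 lower at an unadjusted p under 0.05, 2 higher and 2 lower by DESeq2 and 0 by limma-voom. The sheddases ADAM10 (0.53, edgeR adjusted p = 0.0549) and ADAM17 (0.64, edgeR adjusted p = 0.0887) had higher values in siUSP9X. The tetraspanins CD9 (-0.59, edgeR adjusted p = 0.0864) and CD82 (-0.75, edgeR adjusted p = 0.0890) had lower ones. The median was -0.06, and 2 were higher and 3 lower without siUSP9X replicate 2.

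Of 24 tested mesenchymal genes 2 rose, the collagen gene COL5A2 and the matrix protein gene TGFBI. COL5A2 was at 3.45 ± 0.531 CPM in siUSP9X and 1.79 ± 0.184 CPM in siCtrl (log2 fold change 0.95 ± 0.17, edgeR adjusted p = 0.00794), and TGFBI at 44.8 ± 5.98 CPM in siUSP9X and 26.6 ± 4.20 CPM in siCtrl (0.75 ± 0.14, edgeR adjusted p = 0.00986). Both kept the call in 10 of 10 fits without 1 library. Fibronectin (FN1, 0.75) and ITGB3 (0.80) had all siUSP9X libraries above siCtrl but edgeR adjusted p-values of 0.0528 and 0.0563. No mesenchymal gene was lower by edgeR, adjusted or at an unadjusted p under 0.05, nor by DESeq2 (0) or limma-voom (0). The median was 0.35, and without siUSP9X replicate 2 there were 13 higher and 0 lower of 24, beside 11.9% higher and 11.5% lower among all genes. Vimentin (VIM), named after its values were seen, was at 600.2 ± 38.2 CPM in siUSP9X and 623 ± 52.1 CPM in siCtrl (edgeR adjusted p = 0.712).

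**Figure D5:**
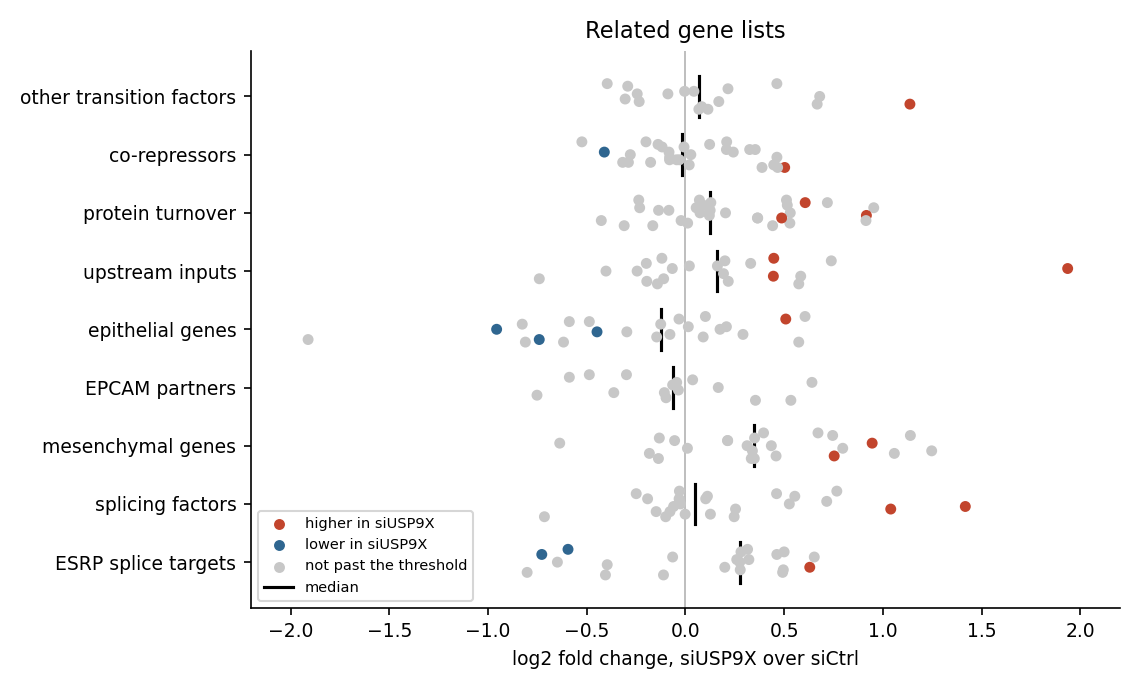
Log2 fold change, siUSP9X over siCtrl, of every tested gene in 9 related lists; red points were called higher and blue points lower by edgeR at an adjusted p under 0.05, and black bars are list medians. Mesenchymal genes have the highest median (0.35) and epithelial genes the lowest (-0.12), and the rightmost point is TGFB2 at 1.94. The lists were written with earlier results of these data known.

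Of 24 tested splicing factors other than ESRP1 and ESRP2, 2 rose. NOVA2, a neuronal and endothelial splicing regulator, was at 11.1 ± 3.69 CPM in siUSP9X and 4.13 ± 0.803 CPM in siCtrl (log2 fold change 1.42 ± 0.22, edgeR adjusted p = 0.00447). CELF2, which binds GU-rich RNA, was at 89.4 ± 30.2 CPM in siUSP9X and 43.5 ± 3.67 CPM in siCtrl (1.04 ± 0.19, edgeR adjusted p = 0.00963). Both were called in 10 of 10 fits without 1 library. QKI, a splicing factor of mesenchymal isoforms, had 0.72 (edgeR adjusted p = 0.0578) and PCBP1 had -0.71 (edgeR adjusted p = 0.0864). None fell by edgeR, against 2 at an unadjusted p under 0.05, 1 by DESeq2 and 0 by limma-voom. The median was 0.05, with 5 higher and 3 lower without siUSP9X replicate 2.

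Of 21 tested genes whose isoforms ESRP proteins regulate, 1 rose and 2 fell in gene-level counts, which do not show isoforms. TCF7L2, a Wnt pathway factor, fell to 8.26 ± 0.643 CPM in siUSP9X, against 13.7 ± 1.41 CPM in siCtrl (log2 fold change -0.73 ± 0.11, edgeR adjusted p = 0.00443). CTTN, the actin-binding cortactin gene, fell to 204 ± 25.4 CPM in siUSP9X, against 308 ± 9.32 CPM in siCtrl (-0.59 ± 0.10, edgeR adjusted p = 0.00743), and both were called in 10 of 10 fits without 1 library. CTNND1, which encodes p120-catenin, rose by 0.63 ± 0.17 on the log2 scale (edgeR adjusted p = 0.0474) but was called in 1 of those fits, the one without siUSP9X replicate 2. KIF13A had 0.65 (edgeR adjusted p = 0.0554). The median was 0.28, and without that replicate 5 were higher and 5 lower. FGFR2, the classical ESRP target, named after its values were seen, had 5 pooled counts in siUSP9X and 0 in siCtrl.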

How the data were processed

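RNA was measured in 10 libraries, 5 siUSP9X and 5 siCtrl, grouped by the treatment label; stranded poly(A) libraries were made from TRIzol-extracted RNA per the labels' protocols. The authors deposited whole-number counts per gene symbol, not normalized. Per the submitters' processing notes the tools were RSEM and DESeq2 and the build hg38, without versions or roles; the aligner, the annotation and whether the counts are rounded RSEM estimates are not given in the sources used here. The 9 genes and the lists were chosen with earlier results of these data known.

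Counts as deposited were tested with edgeR 4.0.16 (R 4.3.3; glmQLFit with robust estimation, glmQLFTest) with TMM factors, filterByExpr with its minimum count of 10, group as the only term, and Benjamini-Hochberg adjustment over all 13934 tested genes at 0.05, two-sided. CPM are counts per 1e+06 TMM-scaled counts. Totals of 15958362 to 26467787 counts set the counting precision; pooled low counts carry exact Poisson intervals at 95%. Lengths, coordinates and UTRs come from GENCODE release 29 (GRCh38), promoters and microRNAs from RefSeq (GRCh38.p14). Named beside the 9 genes were up to 4 genes per list with the smallest p, every called gene of a list with fewer than 8 calls, and for ZEB1 and ZEB2 the 4 nearest profiles among genes with a mean of at least 5 CPM, on log2(CPM + 0.5). Alternatives used other scaling factors, filters, thresholds, DESeq2 1.42.0, limma-voom (limma 3.58.1), a replicate block, each library left out, and, chosen after seeing the data, offsets for gene length, library weights and principal transcript length. The fits were tested on simulated data.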

Additional observations from a re-analysis of the deposited data

Results flagged for a closer look

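Each of the named genes was examined in both groups for a library far from the other 4 of its group, that is, with a gap to the nearest of them of over 0.71 of the group's whole range. Chance flags about 1 in 20 groups only where the groups are independent. Here the groups share libraries and the neighbours of ZEB1 and ZEB2 were picked by profile, so that rate is no yardstick. Of 108 groups (54 genes) 28 held such a library, and 25 of the 28 were siUSP9X replicate 2. Its shift with gene length and ribosomal protein share is given with the results; its part in these values was not tested.

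Among the 9 genes, siUSP9X replicate 2 stood high for ZEB1 at 61.5 CPM (next library of its group 36.3) and ZEB2 at 12.8 CPM (next 4.92). The single SNAI2 count put siUSP9X replicate 3 at 0.0586 CPM, with the rest of its group at 0.

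Among pathway genes, siUSP9X replicate 2 stood high for TCF4 at 27.7 CPM, HDAC2 at 277 CPM, FBXW11 at 198 CPM, FN1 at 593 CPM, ITGB3 at 32.7 CPM and CELF2 at 143 CPM. It also stood high for QKI at 381 CPM, CTNND1 at 807 CPM, KIF13A at 154 CPM, ADAM10 at 453 CPM, ADAM17 at 50.8 CPM and TGFBR2 at 123 CPM. It stood low for KRT18 at 768 CPM, PCBP1 at 52.7 CPM, CD9 at 99.3 CPM and CD82 at 20.4 CPM.

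Among the genes with profiles like ZEB1 or ZEB2, replicate 2 of siUSP9X stood high for MCTP1 at 76.2 CPM, MECOM at 40.6 CPM, ARHGAP12 at 72.2 CPM, GXYLT1 at 258 CPM, HIPK3 at 354 CPM, SKIL at 259 CPM and KDM7A at 42.7 CPM. In siCtrl, replicate 1 stood high for KDM7A at 11.3 CPM and replicate 2 for SNAI3-AS1 at 11.5 CPM.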

How the results depend on the processing

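No fold change of the 5 tested genes or of USP9X changed sign under any alternative run. ZEB1 kept its call in 16 of 21 alternatives (log2 fold change 0.76 to 1.08, edgeR, DESeq2 or limma adjusted p 1.12e-05 to 0.125) and ZEB2 in 14 of the 20 in which it was tested (1.08 to 1.76, adjusted p 2.30e-05 to 0.145). ESRP1 was called in 3 of 21 and EPCAM in 4 of 17, while SNAI1 was called in none of 21 (adjusted p 0.0680 to 0.537). Of the 9 genes, 0 were called higher at a threshold of 0.01 and 1 (of 3 tested) under a filter of 5 CPM; DESeq2 and limma-voom with library weights each called 2 lower. Over all genes DESeq2 called 1127 higher and 979 lower, a threshold of 0.01 left 102 and 136, length offsets gave 715 lower, and library weights gave 2476 higher and 2445 lower. Without 1 library the ranges were 170 to 1674 genes higher and 189 to 1620 lower (both highest without siUSP9X replicate 2), 0 to 2 of the 9 genes higher and 0 to 2 lower, and -3.67 to -3.14 for USP9X. All 1019 calls were also called without siUSP9X replicate 2. DESeq2 was run with no filter on low counts, and its median over all genes with a fold change was 0.10. The edgeR fit with no filter had a median of 0.08. With replicate numbers as a block, edgeR called 34 genes higher and 57 lower and 0 of the 9 genes (ZEB1 adjusted p = 0.125, ZEB2 0.145); same-numbered libraries had correlations of -0.494 to 0.284, 1 of 5 over 0.1, and 0 siUSP9X libraries correlated best with their own number, so the numbers were not taken as pairs. Of 420 list counts under alternatives, 132 moved, that is, changed by over 1.5 times or went to or from 0. The looser E-box CANNTG was in 68.7% of promoter windows, against 20.6% for CACCTG. The cause of these differences was not tested. Depth limits ESRP2, EPCAM and the genes at 0, whose pooled intervals or floors are given with the results.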

Other observations

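The 3′ UTRs of the principal transcripts were also searched for any of 4 words of 7 bases. These were AATCACA with its overlapping neighbour ATCACAA, and AACTCTA with its overlapping neighbour CAACTCT, which had been picked earlier from the fold changes of these same libraries, so that their shares are descriptions. A word was present in 49.3% of the UTRs of genes called lower in siUSP9X (210 of 426), in 25.6% of those called higher and in 27.2% of those not called. ESRP1 held 2 matches, ZEB2 held 3, ZEB1 held 1, and SNAI1 and EPCAM held 0. What these matches have to do with the level of ESRP1 was not tested.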
